A study of Mus musculus with 12 samples.

Results

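Bone marrow of mice given leucogen together with cyclophosphamide was compared with the marrow of mice given saline only. The comparison rests on 6 of the 12 libraries of the series, 3 of the leucogen group against 3 of the normal group, each made from the femoral marrow of 1 male outbred ICR mouse. Leucogen group mice received leucogen by mouth at 20 mg/kg/day for 7 days and intraperitoneal cyclophosphamide at 80 mg/kg/day from day 5 to day 7, and normal group mice received saline by both routes. The 3 model libraries came from mice given the same cyclophosphamide with oral saline, and they were used only to show where the leucogen libraries stood beside cyclophosphamide alone. The age of the mice is not given in the sources used here. Leucogen was never given without cyclophosphamide, so a difference from normal marrow cannot be told apart between the agents. Total marrow was sequenced without sorting, and a lower level of a cell type's genes can mean fewer such cells or less of that RNA in each, which bulk libraries cannot tell apart.

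Marrow makes several blood lineages side by side, and each leaves its own transcripts in a bulk library. Dividing promyelocytes fill the first granules of neutrophils with enzymes such as myeloperoxidase, and later precursors switch to lactoferrin and other secondary granule proteins. Erythroblasts fill with globin and haem, and B cell precursors rearrange their antigen receptor genes. Cyclophosphamide is an alkylating prodrug whose products crosslink DNA and damage dividing cells. Leucogen is a sulfur-containing drug given for low white cell counts.

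Gene counts summed to between 14164054 and 14876552 in the normal libraries, between 11172547 and 14766064 in the leucogen libraries and between 13279282 and 16922274 in the model libraries. Replicates differed by more than sampling noise in each group; chi-square divided by its degrees of freedom was 10.2 to 14.4 between normal libraries, 13.9 to 19.4 between leucogen libraries and 44.8 to 59.3 between model libraries. Levels are given in CPM, the counts of a gene as a rate of the library's scaled total, and a gene was called changed at an absolute log2 fold change above 0.585, which is 1.5-fold, with a Benjamini-Hochberg adjusted p below 0.05 in edgeR's quasi-likelihood test. Column headings of the count table name the groups by words other than the sample titles, and they were matched by meaning, not by values.

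Of the 34745 genes in the table, 14637 had enough counts to be tested between leucogen and normal, and 5514 of them changed (37.7%). Of these, 2610 genes rose (17.8% of those tested) and 2904 fell (19.8%). With the study's own cutoff on the unadjusted p-value, 5766 genes passed (39.4%). The falls were the deeper: 472 genes had a log2 fold change beyond 4 downward and 21 beyond 4 upward among the called genes. Genes that rose held 15.52% of all counts in normal marrow and 33.52% in leucogen marrow, whereas genes that fell went from 23.38% to 7.25%. The 3 libraries of one group did not overlap the 3 of the other for 61.8% of all genes tested, so a lack of overlap was the usual state of a gene here. For the 40 gene lists used below, each member count can be read against these shares.

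**Figure D1:**
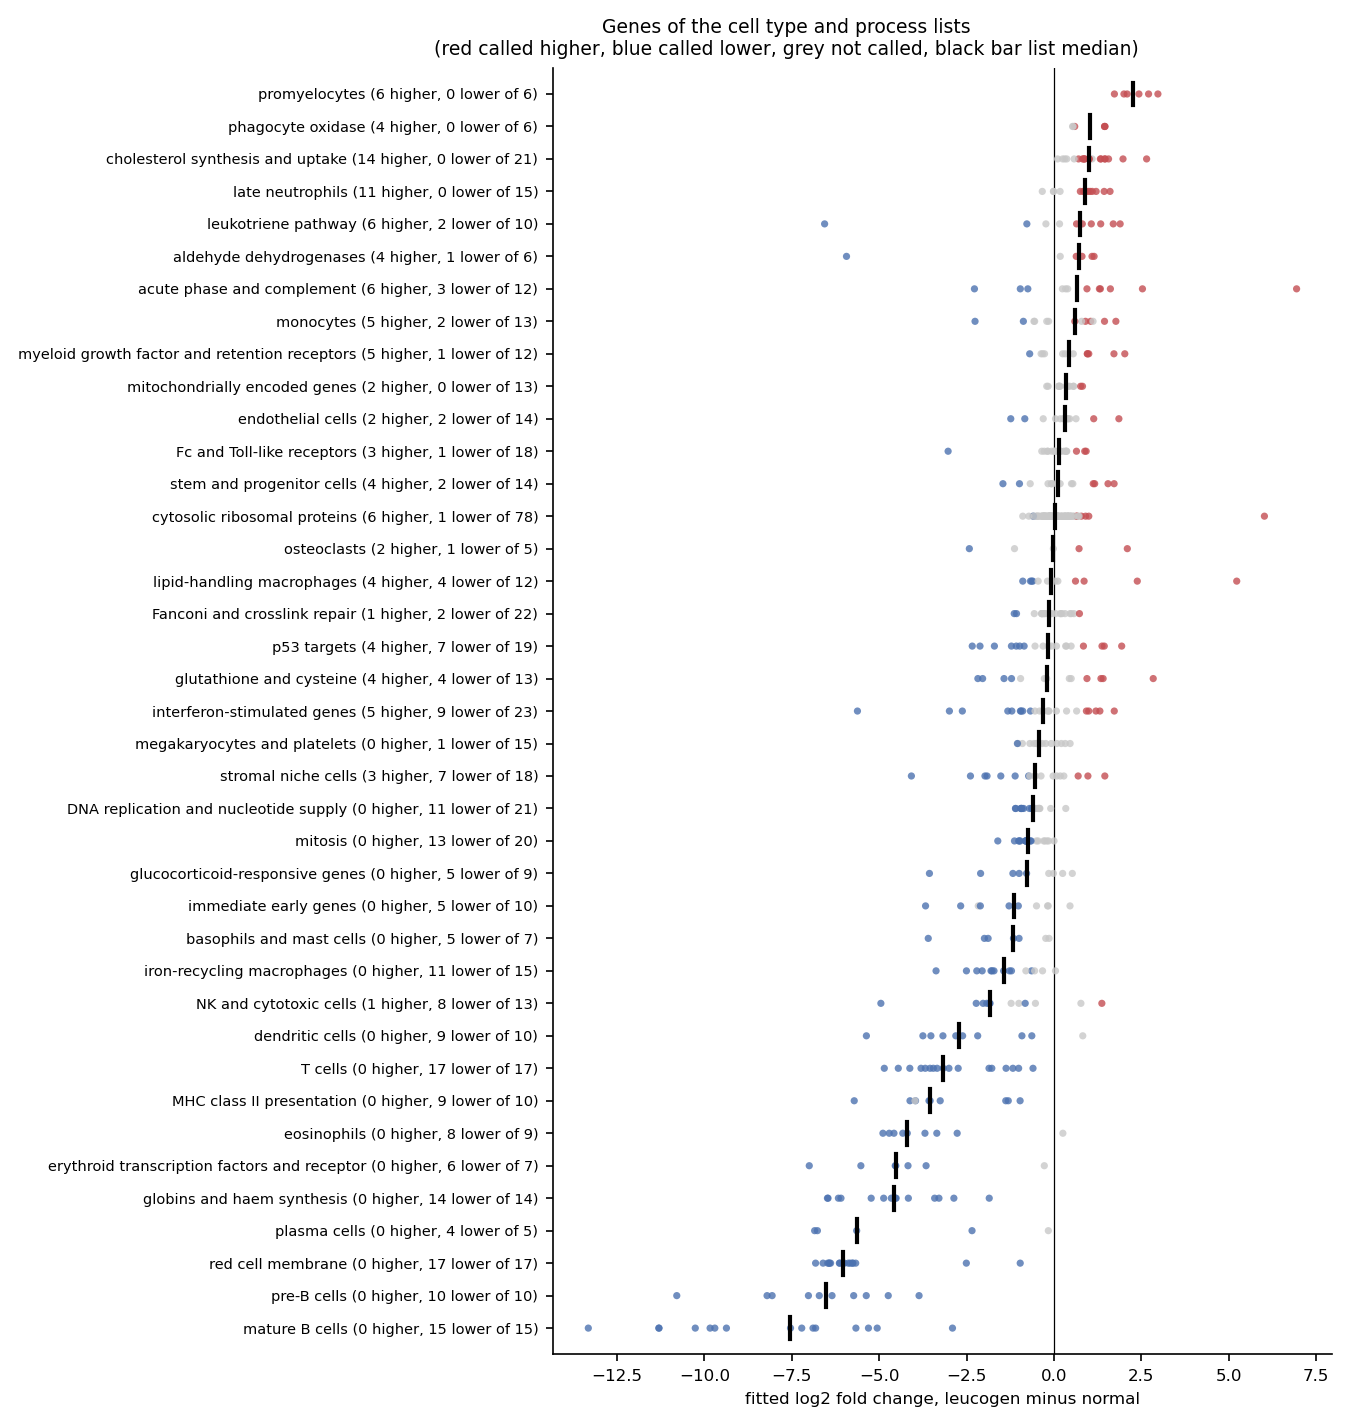
Each point is the fitted log2 fold change of 1 tested gene (leucogen minus normal) on the horizontal axis, in rows for the cell type and process lists, coloured by whether it was called higher, called lower or not called, with a black bar at the list median. Promyelocyte genes lie on the right with a median of 2.26, and mature B cell genes on the left with a median of -7.54; values beyond about -8 belong to genes with almost no counts in the leucogen libraries.

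Among the cell type lists, those of promyelocytes and late neutrophils had the highest medians and the most genes called higher. All 6 promyelocyte genes rose, with a median log2 fold change of 2.26. Ctsg, which encodes cathepsin G of the primary granules, stood at 166, 144 and 110 CPM in the normal libraries and at 1069, 1148 and 1036 CPM in the leucogen libraries. Its log2 fold change was 2.97 ± 0.14 (SE, adjusted p = 2.16e-07). Mpo, the myeloperoxidase gene, was at 413, 340 and 341 CPM in normal and 1346, 1836 and 1149 CPM in leucogen marrow, a log2 fold change of 2.00 ± 0.17. Neither gene had overlapping groups. Elane, encoding neutrophil elastase, rose 3.31-fold, Prtn3, encoding proteinase 3, rose 5.38-fold, and Ms4a3, a membrane protein gene typical of granulocyte-monocyte precursors, rose 6.52-fold.

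Genes of later neutrophils rose less. Of 15 tested, 11 rose and none fell, with a median log2 fold change of 0.88. Ltf, which encodes lactoferrin of the secondary granules, was measured at 2366, 2438 and 2429 CPM in normal and at 3993, 5344 and 4121 CPM in leucogen marrow. Every leucogen library was above every normal library, and the log2 fold change was 0.91 ± 0.12 (edgeR adjusted p = 0.000126). Ly6g, the surface antigen by which mouse neutrophils are usually recognised, was at 163, 164 and 135 CPM in normal and at 267, 273 and 274 CPM in leucogen libraries, 1.78-fold higher. Cd177, a neutrophil surface glycoprotein gene, rose 2.70-fold, and Itgb2l, an integrin beta chain gene of neutrophils, rose 3.04-fold.

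The 4 genes of this list without a call were Mmp8, Mmp9, Cxcr2 and Retnlg, while Ltb4r1, Padi4 and Mcemp1 were among those called higher. Mmp8 and Mmp9 encode the collagenase and gelatinase of the later granules, with log2 fold changes of -0.02 ± 0.11 and -0.01 ± 0.11. Cxcr2, the receptor that draws neutrophils out to the blood, had 0.17 ± 0.08, and Retnlg, a resistin-like protein gene of mature neutrophils, had -0.34 ± 0.09 (adjusted p = 0.00847, below the fold cutoff). With all 12 libraries in one fit, sharing one estimate of spread over all groups, only 4 of the 15 genes were called higher. Ltf (edgeR adjusted p = 0.274), Ngp (0.223) and Lcn2 (0.274) were not among them. The cause of the lost calls was not tested. The log2 fold change of Ltf in that fit was 0.89.

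Beside cyclophosphamide alone, the leucogen libraries stood differently for the early and the late genes. In that comparison 14184 genes were tested and 3275 were called (23.1%), of which 1640 were higher in leucogen (11.6%) and 1635 lower (11.5%). The split moved with the scaling: with total counts, 1150 of 3805 called genes (30.2%) were higher in leucogen. It also rested on single libraries: 1724 genes were called without leucogen 1 and 1239 without leucogen 3, and 1036 genes were lower without model 1. Promyelocyte genes were lower than in the model libraries for 5 of 6, with a median of -0.91, and late neutrophil genes were higher for 10 of 15, with a median of 1.76. Mpo was at 3237, 2310 and 4763 CPM in model marrow, above all leucogen libraries (log2 fold change of leucogen over model -1.23 ± 0.28, edgeR adjusted p = 0.0137). Ltf was at 309, 1375 and 955 CPM in the model libraries, below all leucogen libraries (2.37 ± 0.50, adjusted p = 0.0161). Ly6g was at 5.78, 40.05 and 10.5 CPM in model marrow. Both comparisons use the same 3 leucogen libraries, so their values are placed side by side only.

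**Figure D2:**
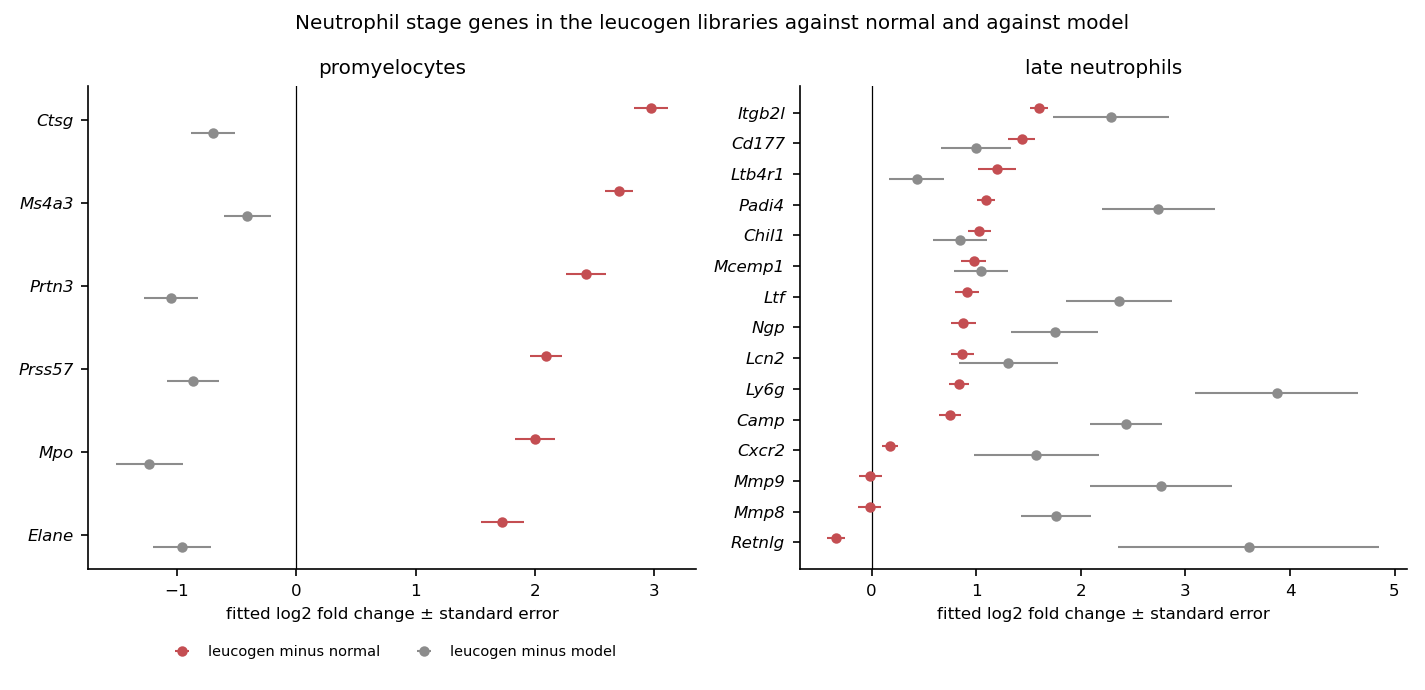
Fitted log2 fold change with its standard error on the horizontal axis for 6 promyelocyte genes (left panel) and 15 late neutrophil genes (right panel), in red for leucogen minus normal and in grey for leucogen minus model. The promyelocyte genes lie above 0 against normal and below 0 against model, and 10 late neutrophil genes were called above 0 against model, with longer error bars.

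The promoters of late neutrophil genes were searched for the letters TTGCNNAA, a C/EBP-type motif, on both strands of the 250 bases before the RefSeq start. C/EBP factors are transcription factors of granulocyte precursors. It occurred in 6 of the 14 late neutrophil genes with a window (42.9%) and in 10.8% of all 27018 genes with one. It was 1 of 11 spellings counted, and the spellings printed here were chosen after the counts were seen. None of the 5 promyelocyte genes with a window had TTGCNNAA. Another spelling counted, CCNCACCC, was also found in 6 of the 14 late neutrophil genes (42.9%), against 16.6% of all genes. Mmp8 and Retnlg, which had no call, also matched TTGCNNAA and are not printed. The stretches below show where TTGCNNAA lies in 4 genes of the list that rose. Sequences are from RefSeq on GRCm38.p6, written 5′ to 3′ along the gene, with the matched letters in capitals. A match on the other strand is printed as its reverse complement. Ngp had 2 matches in the 250 bases, and the stretch printed holds 1 of them.
Ltf, chr9:111019177-111019266, plus strand: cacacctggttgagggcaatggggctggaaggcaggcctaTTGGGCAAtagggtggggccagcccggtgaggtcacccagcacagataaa
Ngp, chr9:110419718-110419807, plus strand: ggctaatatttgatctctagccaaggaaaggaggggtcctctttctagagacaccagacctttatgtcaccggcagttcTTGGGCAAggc
Lcn2, chr2:32387900-32387989, minus strand: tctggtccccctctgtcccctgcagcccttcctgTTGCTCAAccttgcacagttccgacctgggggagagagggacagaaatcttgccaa
Ly6g, chr15:75155011-75155100, plus strand: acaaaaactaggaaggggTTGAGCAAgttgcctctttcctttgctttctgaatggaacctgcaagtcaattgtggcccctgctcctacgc
A match is a description of the letters and no evidence of binding. Of the transcription factor genes themselves, Cebpe, which is needed for secondary granules, was at 60.9, 55.5 and 52.4 CPM in normal and at 103, 137 and 106 CPM in leucogen libraries, and it rose 2.07-fold. Gfi1, a repressor needed for neutrophil development, rose 4.24-fold with one low normal library (10.7, 22.7 and 29.0 CPM against 83.6, 69.5 and 109 CPM). Spi1, encoding the myeloid factor PU.1, rose 1.74-fold and Cebpa rose 1.72-fold. These 4 factor genes belong to no list and were chosen after their values were seen.

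The 8 genes that gained most in CPM are known from myeloid cells. S100a8, one chain of the calprotectin dimer of the neutrophil cytosol, was at 7922, 7804 and 5924 CPM in normal and at 23627, 25422 and 25618 CPM in leucogen libraries, a log2 fold change of 1.81 ± 0.14. Its partner S100a9 rose 3.36-fold. Anxa1, encoding an anti-inflammatory phospholipid-binding protein, rose 4.41-fold, from a mean of 2403 ± 276 to 10477 ± 1463 CPM (SD, n = 3). Abca13, a large transporter gene, rose 4.61-fold, Chil3, a chitinase-like secreted protein gene, rose 2.98-fold, Lyz2, encoding lysozyme, rose 2.06-fold, and Cybb and Ltf completed the 8. In the model libraries S100a8 was at 1726, 8689 and 4513 CPM, all below the leucogen libraries.

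Of the 12 named genes with the largest fold rises, 5 belonged to the stefin A cluster, whose genes encode inhibitors of cysteine proteases. Stfa2 was at 7.15, 4.78 and 4.36 CPM in normal and at 219, 288 and 172 CPM in leucogen libraries (log2 fold change 5.398 ± 0.271). Stfa3 rose by 5.21, BC100530 by 5.07, Stfa1 by 4.84 and BC117090 by 4.32 on the log2 scale. These genes are near-identical copies of one another, so reads may be divided among them and the level of any one is uncertain. In the model libraries Stfa2 was at 1.62, 55.3 and 38.8 CPM, and its difference from leucogen was not called (2.85 ± 1.15, edgeR adjusted p = 0.137).

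Rbm12b2, an RNA-binding protein gene, was near absent in normal marrow at 1.88, 1.16 and 0.886 CPM and stood at 59.3, 64.0 and 65.6 CPM in leucogen libraries (5.61 ± 0.20). Its copy Rbm12b1 was at 3.25, 25.9 and 25.2 CPM in normal and 27.1, 25.7 and 27.5 CPM in leucogen libraries. Rpl26, a ribosomal protein gene, was listed first by fold but was divided within the leucogen group: 3.25, 192 and 195 CPM against 1.37, 1.84 and 2.80 CPM in normal, with 194, 267 and 2.45 CPM in model libraries. Its call (6.02 ± 1.78, edgeR adjusted p = 0.0486) was lost when any library but leucogen 1 was left out, with adjusted p from 0.109 to 0.15. Tctex1d1, Clmn and Dmkn, with log2 fold changes of 4.34, 4.004 and 3.45, rose from levels near 1 CPM. Tgtp1, an interferon-induced GTPase gene with a copy Tgtp2, rose by 3.35, and by 2.504 without leucogen 1, and its call was lost without normal 1 (edgeR adjusted p = 0.0727) or without normal 2 (0.0685).

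**Figure D3:**
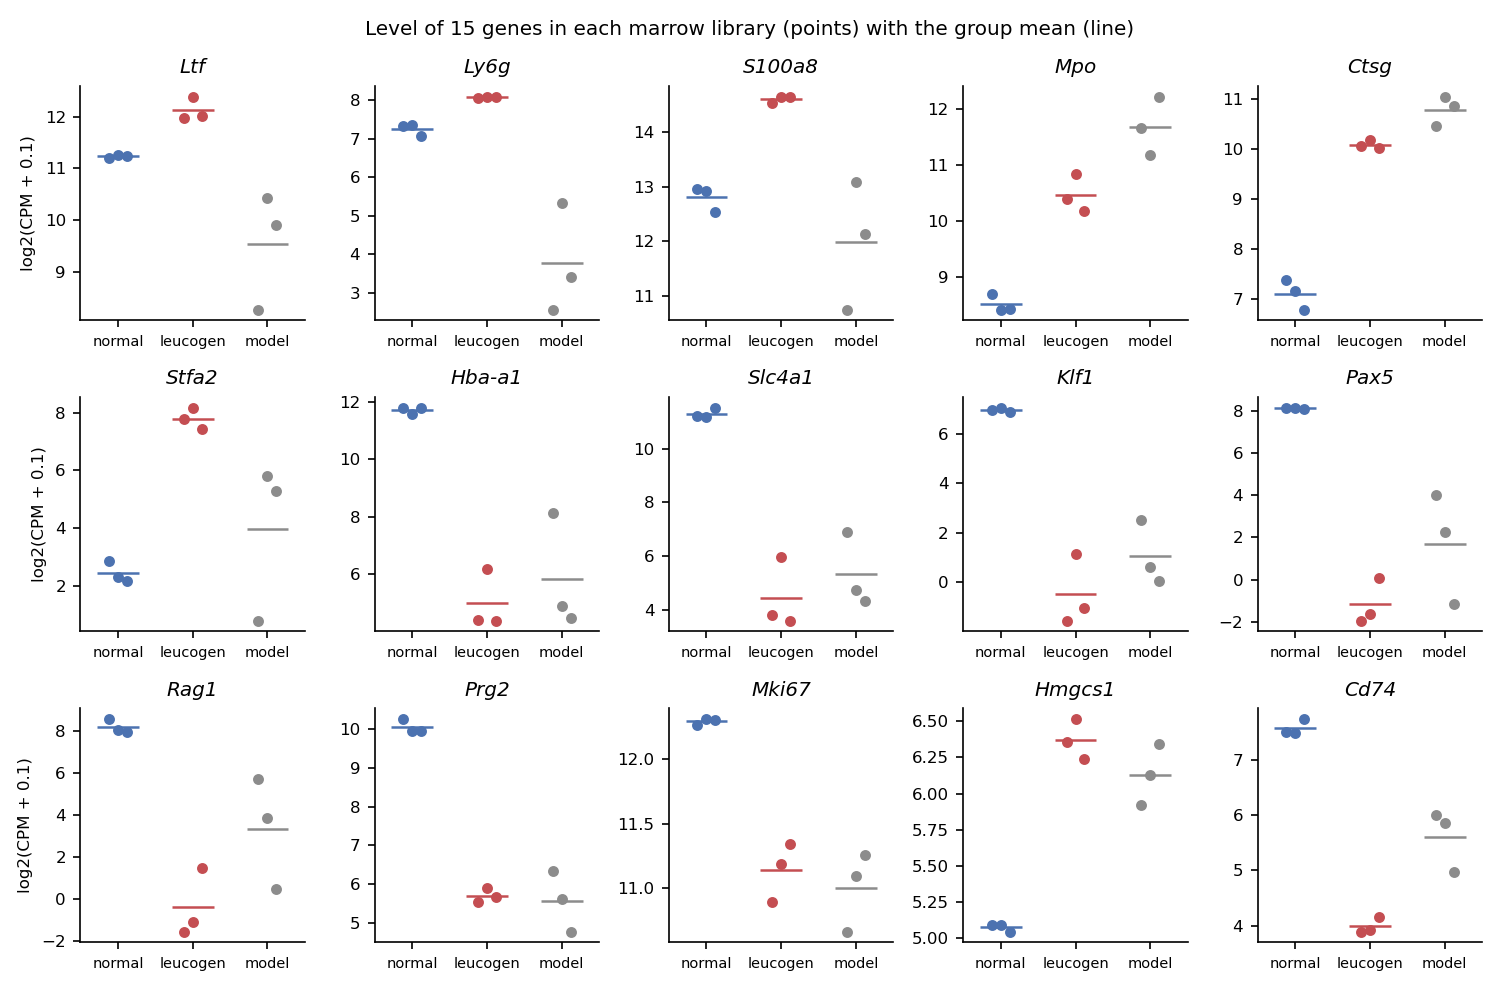
Level of 15 genes in each of the 3 normal, 3 leucogen and 3 model libraries as log2(CPM + 0.1), with points for libraries and a line for the group mean; each panel has its own vertical scale. The leucogen points lie above the normal points for Ltf, Ly6g, S100a8, Mpo, Ctsg, Stfa2 and Hmgcs1 and below them for the other 8 genes.

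The red cell lineage lost most of its transcripts. All 14 globin and haem synthesis genes fell, with a median log2 fold change of -4.59, as did all 17 red cell membrane genes, with a median of -6.03. Together the globin and haem genes held 1.89, 1.52 and 1.95% of counts in the normal libraries and 0.0468, 0.0918 and 0.0413% in the leucogen libraries. Leucogen 2 was the highest of its group in these genes. Hba-a1, encoding alpha globin, was at 3507, 3091 and 3561 CPM in normal and at 20.8, 72.4 and 20.6 CPM in leucogen libraries, a log2 fold change of -6.46 ± 0.70 (edgeR adjusted p = 0.0015). Without leucogen 2 it was -7.34. Its copy Hba-a2 was counted at 1.23, 1.23 and 1.64 CPM in normal marrow, and the pair is near-identical, so how reads were divided between them is uncertain. The same holds for the beta globin genes Hbb-bs and Hbb-bt.

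Genes for the red cell skin fell as deeply. Slc4a1, encoding the band 3 anion exchanger, was at 2394, 2327 and 2983 CPM in normal and at 13.6, 62.5 and 11.9 CPM in leucogen libraries, a log2 fold change of -6.43 ± 0.89, and -7.64 without leucogen 2. The median of the red cell membrane list was -7.03 without leucogen 2. Xk, a blood group gene, fell least, from 139, 122 and 142 to 65.4, 73.2 and 65.3 CPM. Tfrc, the transferrin receptor through which erythroblasts take up iron, was among the 8 largest losses in CPM and fell 7.13-fold, and Slc25a37, the mitochondrial iron importer gene, fell 10.7-fold.

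Of the 7 erythroid transcription factor and receptor genes, 6 fell. Klf1, the master factor of globin switching and red cell maturation, was at 125, 133 and 119 CPM in normal and at 0.238, 2.10 and 0.380 CPM in leucogen libraries (-7.00 ± 0.54, and -8.64 without leucogen 2). Gata1, which drives erythroid and megakaryocyte genes, fell by 4.53 and Epor, the erythropoietin receptor gene, by 5.52 on the log2 scale. Nfe2, which serves platelet precursors as well, was at 137, 197 and 226 CPM in normal and 160, 137 and 160 CPM in leucogen libraries and had no call. Erythroid levels were low in the model libraries too: Klf1 was at 5.66, 1.42 and 0.934 CPM, and its leucogen over model log2 fold change was -1.51 ± 0.94. Against the model, 2 of 13 globin and haem genes were called lower and none higher.

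The letters GATAAG, 1 of 3 spellings counted of the motif that GATA1 binds, were found in the 250 bases before the start of 14 of 29 erythroid genes with a window (48.3%), against 7.60% of all genes with one. Of the shorter or shifted spellings, which overlap it, AGATAA was found in 27.6% against 11.4% and GATAA in 62.1% against 25.5%. The stretches below are from 6 of the genes that fell, from RefSeq on GRCm38.p6, 5′ to 3′ along the gene, with the matched letters in capitals (CTTATC where the match is on the other strand).
Hba-a1, chr11:32283450-32283539, plus strand: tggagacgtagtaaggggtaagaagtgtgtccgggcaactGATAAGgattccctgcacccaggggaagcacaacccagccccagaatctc
Hbb-bs, chr7:103828088-103828177, minus strand: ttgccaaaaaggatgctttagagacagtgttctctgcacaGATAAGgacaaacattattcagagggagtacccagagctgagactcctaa
Klf1, chr8:84901861-84901950, plus strand: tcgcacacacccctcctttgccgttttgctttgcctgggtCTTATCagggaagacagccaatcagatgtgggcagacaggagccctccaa
Epor, chr9:21963582-21963671, minus strand: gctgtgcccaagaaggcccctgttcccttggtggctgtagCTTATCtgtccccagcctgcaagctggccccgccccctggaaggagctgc
Rhag, chr17:40811059-40811148, plus strand: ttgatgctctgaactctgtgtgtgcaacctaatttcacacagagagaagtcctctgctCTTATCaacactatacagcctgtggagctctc
Kel, chr6:41704326-41704415, minus strand: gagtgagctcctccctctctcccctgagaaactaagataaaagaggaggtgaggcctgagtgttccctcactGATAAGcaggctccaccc
Rhag encodes the Rh-associated glycoprotein and Kel the Kell blood group protein, and they fell by 5.75 and 6.03 on the log2 scale.

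B cell transcripts were close to absent in the leucogen libraries. All 15 mature B cell genes and all 10 pre-B cell genes fell, with medians of -7.54 and -6.53; with genes of 3 counts or fewer in a group set to their counting bound or ratio, the medians were -7.72 and -6.04. Without leucogen 1 the mature B cell median was -8.38. Of these lists, 7 mature B and 2 pre-B cell genes had 3 counts or fewer in the leucogen group. They passed the count filter only through the normal libraries, so the filter fixed their direction. Mature B cell genes held 0.260, 0.273 and 0.271% of counts in normal and 0.00611, 0.0049 and 0.00571% in leucogen libraries. Ms4a1, which encodes the B cell surface protein CD20, was at 207, 258 and 227 CPM in normal and at 0, 0.218 and 0 CPM in leucogen libraries. The ratio of summed levels was 2843, with an exact 95% interval of 972 to 13790 that covers counting error only. Cr2, the complement receptor of mature B cells, was at 107, 109 and 73.6 CPM in normal marrow, had no count in any leucogen library and was at least 1183-fold lower, with a floor of 3 counts over the group. By the same floor Cpm, which encodes a carboxypeptidase, was at least 573-fold lower, Klhl14 at least 301-fold lower, Vpreb3 at least 204-fold lower and Dusp8 at least 161-fold lower.

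Receptor assembly genes fell with them. Rag1, which cuts antigen receptor genes for recombination, was at 385, 269 and 247 CPM in normal and at 0.238, 0.363 and 2.66 CPM in leucogen libraries (-8.21 ± 0.71), and without leucogen 3 the log2 fold change was -9.91. Pax5, the factor that holds cells in the B lineage, was at 285, 279 and 275 CPM against 0.158, 0.218 and 0.9497 CPM (-9.37 ± 0.32), or -10.46 without leucogen 3. Ighm, the heavy chain of IgM, kept more of its level, 1058, 1024 and 1012 CPM against 34.9, 24.4 and 32.5 CPM, a 33.3-fold difference. Of 114 immunoglobulin genes tested, which include 5 V pseudogenes, 110 fell and 1 rose. The gene that rose was a pseudogene. The median of the 114 was -7.36, or -5.26 with the 92 genes of 3 counts or fewer in a group at their bound. Those 92 genes passed the count filter only through the group where they were high, so the filter fixed their direction. Bank1, a B cell scaffold gene, fell least of its list, 7.49-fold. The plasma cell list had 4 of 5 genes lower, and Prdm1, the plasma cell master factor, was at 3.54, 3.27 and 4.36 against 3.96, 1.96 and 3.99 CPM with no call.

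Model libraries were spread widely in B cell genes: Rag1 was at 51.7, 14.5 and 1.28 CPM and Pax5 at 16, 4.74 and 0.350 CPM. Only 6 of the 10 pre-B cell genes could be tested between leucogen and model, of which 1 was called lower: Dntt, the nucleotide-adding enzyme of early lymphocytes, at 3.88, 3.48 and 6.17 CPM in leucogen against 85.5, 27.9 and 13.8 CPM in model libraries (-3.23 ± 0.76, edgeR adjusted p = 0.0289).

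**Figure D4:**
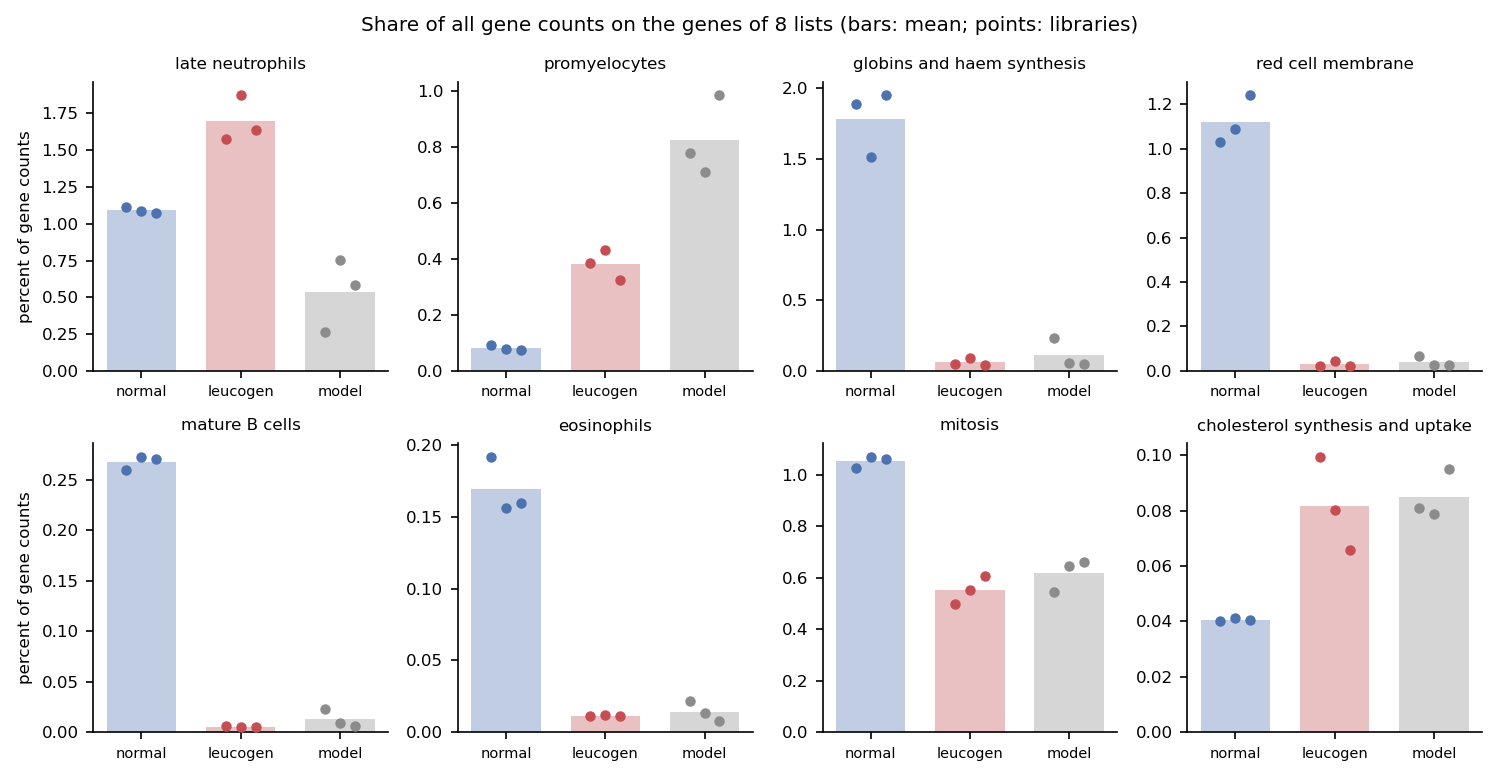
Percent of all gene counts that fell on the genes of 8 lists in each library (points) with the group mean (bars from 0), for normal, leucogen and model marrow; each panel has its own vertical scale. Late neutrophil genes hold 1.57 to 1.87% of counts in leucogen against 1.07 to 1.11% in normal libraries, while globin, red cell membrane, mature B cell and eosinophil bars are near 0 in the leucogen and model groups.

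T cell genes fell from a low starting level. All 17 tested T cell genes fell, with a median of -3.17. Of the list, 13 to 18 genes fell with 1 library left out, the fewest without normal 3, and 5 when each library had to hold at least 10 counts. With limma on log2(FPKM + 1), 10 fell and the median was -0.72. Lck, the kinase that starts receptor signalling, was at 12.4, 13.8 and 18.1 CPM in normal and 1.66, 1.02 and 1.04 CPM in leucogen libraries, an 11.7-fold difference. Cd3d, a chain of the receptor complex, was at 14.8, 16.6 and 17.9 against 10.1, 12.8 and 9.21 CPM, only just past the cutoff (-0.60 ± 0.16), and its call was lost with all 12 libraries in one fit (adjusted p = 0.37) and without leucogen 1, leucogen 3 or normal 3. Its level in model libraries was 1.21, 2.55 and 2.68 CPM, below all leucogen libraries, whereas the other chains Cd3e and Cd3g were near 0 in leucogen marrow. Of 13 natural killer and cytotoxic genes, 8 fell and 1 rose. The count of falls was 5 without normal 2 and 4 without normal 3. The gene that rose was Nkg7, a granule membrane gene, from 20.8, 19.4 and 19.6 to 53.2, 61.2 and 37.9 CPM, with 97.4, 89.6 and 123 CPM in model marrow. Ccl5, a chemokine of cytotoxic lymphocytes, fell 31.0-fold.

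Eosinophil genes fell in 8 of 9 cases, with a median of -4.20. Prg2, the major basic protein of their granules, was at 1229, 981 and 991 CPM in normal and 46.7, 60.1 and 51.0 CPM in leucogen libraries, 20.04-fold lower, and at 80.9, 49.2 and 27.4 CPM in model libraries. Siglecf, also an eosinophil surface gene, was at 16.3, 17.1 and 18.2 against 20.2, 22.8 and 17.7 CPM and had no call. Of 7 basophil and mast cell genes 5 fell, led by the protease gene Prss34 at 12.1-fold, whereas Hdc, the enzyme that makes histamine, was at 92.5, 89.6 and 86.7 against 83.7, 82.2 and 59.2 CPM with no call.

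Antigen presentation genes were lower as well. Of 10 genes of MHC class II presentation, 9 fell, with a median of -3.56. Cd74, the invariant chain that guides class II molecules, was at 180, 178 and 214 CPM in normal and 14.7, 15.01 and 17.7 CPM in leucogen libraries, and Ciita, the factor that switches the class II genes on, fell 17.4-fold. H2-Eb1 had the one missing call, with normal libraries at 34.8, 3.07 and 46.5 CPM. Against the model, 6 of 10 were lower in leucogen, with a median of -1.35; Cd74 was at 64.2, 57.6 and 31.1 CPM there (-1.68 ± 0.27, edgeR adjusted p = 0.00477). Of 10 dendritic cell genes 9 fell, among them Zbtb46, a factor of conventional dendritic cells, by 11.5-fold. Clec9a, a receptor of the cross-presenting subset, was at 4.55, 8.94 and 12.9 against 16.5, 16.8 and 12.9 CPM and had no call.

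Macrophage and monocyte genes were divided. Of 15 genes of macrophages that clear red cells and recycle iron, 11 fell and none rose. Cd163, the haemoglobin scavenger receptor, was at 40.2, 29.0 and 28.8 CPM in normal and at 4.20, 2.68 and 2.37 CPM in leucogen libraries, 10.4-fold lower. C1qa, a chain of complement C1q, fell 4.62-fold, while Slc40a1, the iron exporter ferroportin, was at 281, 254 and 241 against 250, 287 and 253 CPM with no call and at 83.6, 141 and 129 CPM in model libraries. Slc40a1 was thus higher in leucogen than in model marrow (1.18 ± 0.20, edgeR adjusted p = 0.00503).

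Among 12 genes of lipid-handling macrophages, 4 rose and 4 fell. Gpnmb, a lysosomal glycoprotein gene, rose from 0.433, 0.205 and 0.205 to 7.68, 11.5 and 12.7 CPM (5.23 ± 0.35), and Trem2, a lipid receptor, rose 5.21-fold. Lpl, the lipoprotein lipase gene, fell 1.86-fold. Without leucogen 1, or without normal 3, 2 of the 12 were lower. Of 13 monocyte genes, 5 rose and 2 fell; 3 rose and 4 fell without leucogen 1, and 3 rose without normal 1. Ly6c2, an antigen of inflammatory monocytes, went from 18.3, 17.1 and 13.6 to 52.99, 39.5 and 39.1 CPM. Cx3cr1, the fractalkine receptor of patrolling monocytes, went the other way, from 12.9, 17.0 and 15.1 to 3.96, 2.10 and 3.23 CPM. Csf1r, the receptor for M-CSF, was at 98.5, 89.7 and 97.6 against 90.6, 80.7 and 82.1 CPM with no call.

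The platelet list held few called genes beside the 37.7% called among all genes tested, whereas the stem cell and niche lists did not. Of 15 megakaryocyte and platelet genes only Gp9, a chain of the von Willebrand factor receptor, fell, 2.07-fold, and 1 of 15 is below the 19.8% of all genes that fell. Ppbp, a platelet chemokine, ranged from 96.2 to 194 CPM in normal and from 55.5 to 166 CPM in leucogen libraries. Of 14 stem and progenitor genes, 4 rose and 2 fell, and 1 fell without leucogen 2, leucogen 3, normal 2 or normal 3. Kit, the stem cell factor receptor, was at 82.6, 71.4 and 80.4 against 89.98, 85.4 and 85.8 CPM without a call, whereas Erg, a stem cell transcription factor, rose from 30.6, 27.5 and 28.6 to 72.6, 94.1 and 83.5 CPM and Ly6a, encoding Sca-1, rose 3.29-fold. Gata2 fell 2.75-fold; 1 of the 14 fell without leucogen 2, leucogen 3, normal 2 or normal 3.

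In the niche list 7 of 18 genes fell and 3 rose; 1 rose without leucogen 1 or without normal 1, and 4 fell with all 12 libraries in one fit. Col1a1, the main bone collagen, was at 80.9, 109 and 67.5 CPM in normal and 24.2, 21.4 and 21.7 CPM in leucogen libraries, and at 306, 84.8 and 71.4 CPM in model libraries, where 1 library stood far above the others. Cxcl12, the chemokine that retains stem cells, was at 136, 121 and 136 against 85.2, 84.5 and 95.9 CPM, short of the fold cutoff (-0.55 ± 0.10). Of 14 endothelial genes 2 rose and 2 fell, smaller shares than the 17.8% and 19.8% of all genes that rose and fell. The list median of 0.30 was -0.018 without leucogen 1. Flt1, a VEGF receptor, was 3.62-fold higher and Pecam1 1.78-fold lower. In the osteoclast list of 5, Acp5, the tartrate-resistant phosphatase, fell 5.36-fold and Atp6v0d2, a proton pump subunit, rose 4.28-fold; 2 of the 5 rose, and 1 without leucogen 1 or without normal 1.

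Genes of neutrophil effector functions rose in part. The phagocyte oxidase, which makes superoxide to kill microbes, had 4 of 6 subunit genes higher, with a median of 1.02. Cybb, its catalytic subunit, was at 1496, 1311 and 1265 CPM in normal and 3057, 4145 and 3871 CPM in leucogen libraries, and at 1232, 2250 and 1763 CPM in model libraries. Ncf1 rose 2.72-fold and Ncf4 2.73-fold. Rac2, the fourth called gene, was at the cutoff (0.59) and lost its call with other scalings. Of 12 growth factor and retention receptor genes 5 rose and 1 fell. Csf2rb, the shared beta chain of the GM-CSF receptor, went from 86.7, 91.6 and 92.4 to 292, 323 and 263 CPM. Csf3r, the G-CSF receptor, was lower without passing the fold cutoff, at 404, 439 and 359 against 318, 327 and 302 CPM, and Cxcr4, which holds neutrophils in marrow, fell 1.62-fold.

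In the leukotriene pathway 6 of 10 genes rose and 2 fell. Across the settings tried, 4 to 6 genes of the list rose. Lta4h, which makes the neutrophil attractant leukotriene B4, rose from 173, 145 and 152 to 504, 637 and 579 CPM. Alox5, the first enzyme, rose 1.75-fold. Its call was lost with all 12 libraries in one fit (edgeR adjusted p = 0.178). Alox15, a lipoxygenase of eosinophils and macrophages, fell from 87.1, 70.7 and 79.0 to 1.03, 0.435 and 1.04 CPM. Of 12 acute phase and complement genes 6 rose and 3 fell. C3, the central complement protein, rose 3.06-fold and Pglyrp1, a peptidoglycan-binding granule protein, 2.46-fold. Saa3, a serum amyloid gene of inflamed tissue, had 1 count in all normal libraries together and 1.98, 7.40 and 2.37 CPM in leucogen libraries, a ratio of 178 with an exact 95% counting interval of 31.4 to 7061. In model libraries Saa3 was higher still, at 20.7, 71.96 and 39.9 CPM (leucogen over model -3.46 ± 0.68, edgeR adjusted p = 0.0159).

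Of 18 Fc and Toll-like receptor genes 3 rose, which is near the 17.8% of all genes that rose, and 1 rose without leucogen 2 or without normal 2. Tlr9, the receptor for bacterial DNA that B cells carry, was the 1 that fell, 8.16-fold. Interferon-stimulated genes went both ways, with 5 of 23 higher and 9 lower. Rsad2, encoding the antiviral protein viperin, was at 249, 254 and 266 CPM in normal and 3.64, 8.12 and 3.42 CPM in leucogen libraries, 49.2-fold lower. Oas2, an RNA sensor gene, rose from 8.09, 11.9 and 6.96 to 38.7, 26.5 and 22.7 CPM. Against the model, 6 of 21 interferon genes were higher in leucogen and none lower.

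Genes of cell division fell. In the mitosis list 13 of 20 fell and none rose, with a median of -0.75, and in the DNA replication and nucleotide supply list 11 of 21 fell and none rose, with a median of -0.60. Mki67, the proliferation antigen Ki-67, was at 4925, 5104 and 5078 CPM in normal and 1890, 2331 and 2592 CPM in leucogen libraries (-1.13 ± 0.12, edgeR adjusted p = 3.72e-05), and at 1613, 2176 and 2442 CPM in model libraries. Rrm1, the large subunit of ribonucleotide reductase, fell 2.14-fold and Ube2c, a ubiquitin carrier of the anaphase complex, 3.05-fold. Ttk, Bub1 and Bub1b of the spindle checkpoint had log2 fold changes of 0.00, -0.20 and -0.16 with no call. Of 70 histone genes with Hist names 57 fell and none rose, with a median of -1.79, and Hist1h1c, a linker histone, went from 1361, 1344 and 1170 to 341, 373 and 358 CPM. Erythroblasts and B cell precursors, whose genes fell in the same libraries, also divide, and their part in these counts was not tested.

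In promoters of replication genes the letters TTTGGCGC, an E2F-type motif, were found in 3 of 17 genes with a window (17.6%) and in 0.485% of all genes. One of the 3 is Mcm6, a subunit of the replicative helicase, with a log2 fold change of -0.53 below the fold cutoff; its matched letters are in capitals (RefSeq, GRCm38.p6, 5′ to 3′ along the gene).
Mcm6, chr1:128359706-128359795, minus strand: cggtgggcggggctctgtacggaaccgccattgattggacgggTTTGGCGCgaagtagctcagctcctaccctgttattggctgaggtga

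Damage response lists were mixed. Of 19 p53 target genes 4 rose and 7 fell. Btg2, an antiproliferative target, fell from 266, 235 and 243 to 46.3, 49.97 and 48.7 CPM. Pmaip1, encoding the death protein Noxa, rose 2.71-fold and Eda2r 3.82-fold, while Cdkn1a, the p21 gene, was at 17.0, 9.28 and 11.6 against 10.5, 14.8 and 7.98 CPM with no call. Of 22 genes of the Fanconi pathway and crosslink repair, 1 rose and 2 fell, a smaller share than among all genes tested. Palb2, which loads BRCA2, rose 1.66-fold and Fancl, the ubiquitin ligase of the pathway, fell 2.10-fold.

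Of the metabolic lists, cholesterol genes had the most rises by count, and 4 of 6 aldehyde dehydrogenase genes rose as well. Of 21 genes of cholesterol synthesis and uptake 14 rose and none fell, with a median of 1.00, and 8 of 21 passed when log2(FPKM + 1) was tested with limma. Fdps, which makes farnesyl diphosphate, was at 12.6, 11.5 and 11.9 CPM in normal and 53.4, 48.4 and 37.8 CPM in leucogen libraries (1.97 ± 0.14, edgeR adjusted p = 2.58e-06). Hmgcs1, an early enzyme of the pathway, rose from 33.9, 34.0 and 32.9 to 82.1, 91.6 and 75.6 CPM. Insig1, which encodes a sterol-sensing brake on the pathway, rose from 17.9, 19.6 and 19.8 to 56.3, 47.2 and 52.3 CPM. Srebf2, the factor that turns these genes on, was at 60.0, 59.3 and 66.2 against 79.5, 80.4 and 57.5 CPM with no call. In model libraries Fdps was at 44.2, 56.3 and 83.0 CPM and Hmgcs1 at 60.4, 69.9 and 81.1 CPM; against the model 2 of the 21 genes were higher in leucogen and 1 lower.

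**Figure D5:**
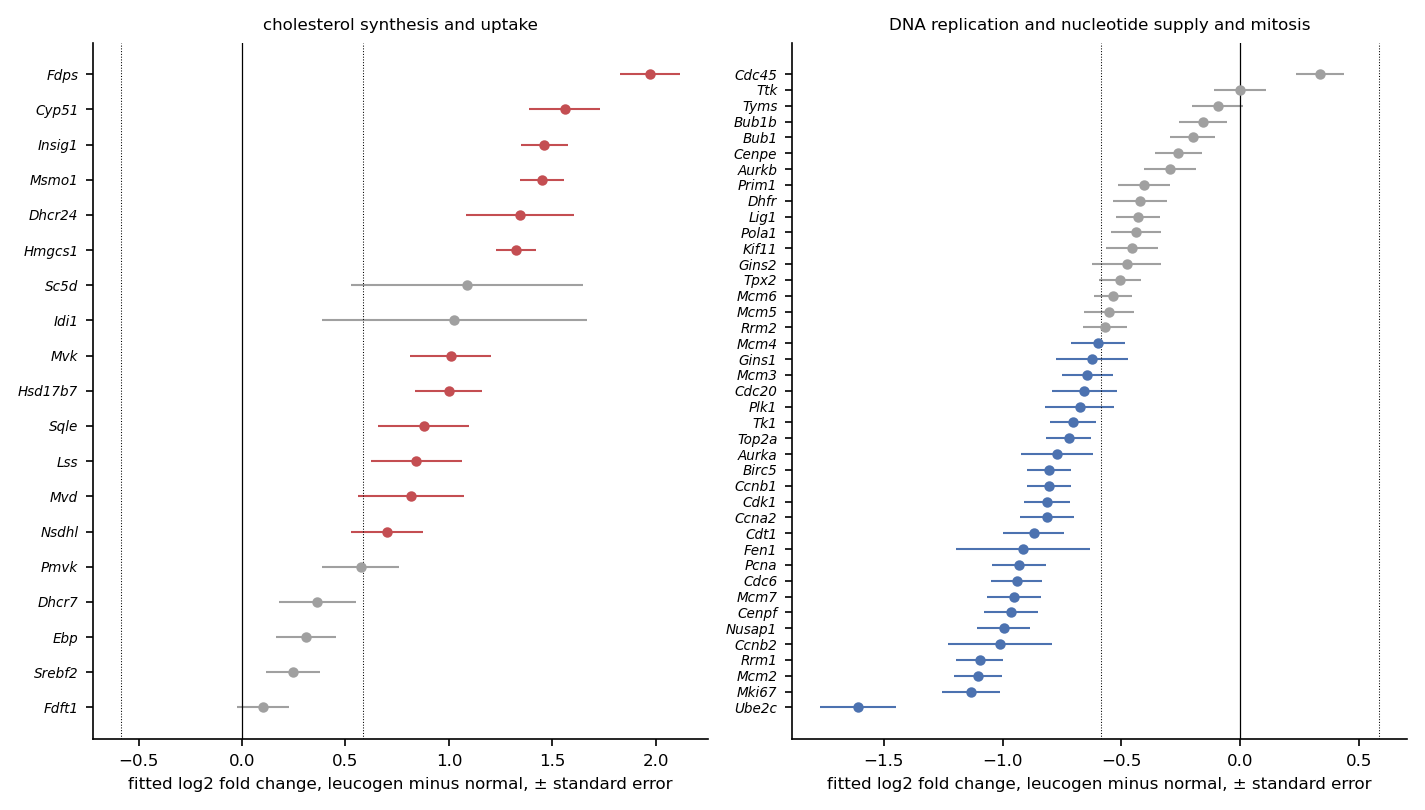
Fitted log2 fold change (leucogen minus normal) with its standard error for 19 genes of the list of 21 cholesterol genes (left) and 41 genes of replication and mitosis (right), with dotted lines at the cutoff of 0.585 on either side of 0; red genes were called higher, blue lower and grey not called. The cholesterol genes drawn lie to the right of 0, with Fdps at 1.97 and Fdft1 at 0.10, and nearly all division genes to the left, down to -1.61 for Ube2c.

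The sterol element written TCACNCCAC was found before the start of 1 of 15 cholesterol genes with a window (6.67%), Hmgcs1, and of 1.23% of all genes. It is printed for its place in that enzyme's promoter, with the match in capitals (RefSeq, GRCm38.p6, 5′ to 3′ along the gene).
Hmgcs1, chr13:119690174-119690263, plus strand: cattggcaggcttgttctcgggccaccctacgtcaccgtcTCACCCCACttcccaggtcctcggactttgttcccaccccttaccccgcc

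Other metabolic and stress lists had both rises and falls. Of 13 glutathione and cysteine genes 4 rose and 4 fell. Gclc, the catalytic subunit of the enzyme that starts glutathione synthesis, fell from 141, 150 and 142 to 28.4, 37.5 and 28.6 CPM, and its partner Gclm fell 2.32-fold. Gsr, which regenerates glutathione, rose 2.65-fold. Aldehyde dehydrogenases, some of which detoxify products of cyclophosphamide, had 4 of 6 genes higher. Aldh2 rose from 152, 171 and 162 to 239, 346 and 251 CPM. Aldh1a1, the member best known for inactivating the drug's aldehyde intermediate, fell from 179, 185 and 161 to 2.22, 4.35 and 1.71 CPM, and in model libraries it was at 7.34, 3.04 and 2.39 CPM.

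Stress hormone and early response genes had calls in 1 direction. Of 9 glucocorticoid-responsive genes 5 fell, none rose and 4 had no call, with a median of -0.78, and 6 of 9 were lower than in model libraries. Tsc22d3, encoding GILZ, was at 209, 169 and 128 CPM in normal, 95.8, 115 and 79.1 CPM in leucogen and 175, 195 and 165 CPM in model libraries. Of 10 immediate early genes 5 fell, among them Jund, 12.8-fold, none rose and 5 had no call. Fos varied from 3.14 to 36.0 CPM among the normal libraries and had no call.

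Most ribosomal protein genes had no call. Of 78 cytosolic ribosomal protein genes 6 rose and 1 fell, with a median of 0.03 whose sign turned with total counts, the filter and other settings. Leaving out 1 library gave 4 to 9 rises and 1 to 4 falls, with 4 falls without leucogen 2 or without normal 3 and 9 rises without normal 2. They held 1.14, 1.17 and 0.996% of counts in normal and 1.05, 1.13 and 1.11% in leucogen libraries. Against the model 24 of 78 were lower in leucogen and none higher. Of 13 mitochondrially encoded genes 2 rose, which is near the 17.8% of all genes that rose. They were mt-Atp6, 1.76-fold higher, and mt-Atp8, both subunits of the ATP synthase.

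Of the 20 tested genes that the study names in its own text, 5 rose and 8 fell against normal, and 13 were higher and 1 lower against the model. The study picked genes from its own comparisons in this series, the model libraries among them, so the counts against the model are no independent evidence of direction. Dpp4, a peptidase of lymphocyte surfaces, fell from 216, 228 and 225 to 29.4, 28.5 and 32.6 CPM, and Il7r, the receptor that lymphoid precursors need, fell 26.7-fold. Itgam, encoding the CD11b integrin chain, rose from 433, 432 and 418 to 729, 905 and 829 CPM, and Il18, an inflammatory cytokine, fell 2.41-fold. In all, 319 of the 575 tested genes on the lists changed, and 5195 called genes lay outside them.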

How the data were processed

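Total RNA of femoral marrow from 12 male ICR mice was sequenced as strand-specific, rRNA-depleted libraries. The authors filtered reads with Seqtk and aligned them with HISAT2 to GRCm38.p4 (mm10); the counter and annotation version are not given in the sources used here. The deposited table holds raw read counts per gene and FPKM values, which the authors scaled to gene length and total fragments. Count columns headed Blank, Model, Positive and Stilbene were taken, by meaning and elimination, to be the normal, model, leucogen and QJSB groups. The authors' own fold changes and p-values were not used. A few list members enter the list counts and are not reported here by name.

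Counts were tested in R 4.3.3 with edgeR 4.0.16 (filterByExpr, TMM scaling, robust quasi-likelihood test, Benjamini-Hochberg adjustment), 3 leucogen against 3 normal libraries, and likewise 3 leucogen against 3 model libraries. Each library is a separate mouse. A call needed an absolute log2 fold change above 0.585, the study's cutoff, and an adjusted p below 0.05. Scripts were tested on simulated counts. Alternatives were DESeq2 1.42.0, its size factors in edgeR, total counts, no filter, a minimum of 10 counts per library, 1 fit over the 12 libraries, a replicate block, each library left out, the study's unadjusted cutoff, and limma 3.58.1 on log2(FPKM + 0.1) and log2(FPKM + 1) where the mean FPKM reached 0.1. CPM used TMM factors over the 12 libraries. Named genes were the 12 largest rises and falls with a mean of at least 50 scaled counts and no overlap between groups, the 8 largest gains and losses in CPM, the 3 highest genes of each list, list members that show a stated count, and genes the study names. Unnamed gene models, pseudogenes and antigen receptor segments were left out of the first 2 steps. Of 613 list genes, 609 were found by symbol, and 10 stand in more than 1 list. For 27 genes, names stored as dates were restored from their identifiers. Gene classes came from the reference annotation for 14579 tested genes. Promoter windows came from RefSeq, GRCm38.p6. The members and lists were chosen with earlier results of these data known. Levels at a few counts carry large counting error, and the depths given above limit what can be said of genes below about 1 CPM; intervals cover counting error only.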

Additional observations from a re-analysis of the deposited data

How the results depend on the processing

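Between 5233 and 5563 genes were called against normal with each library left out in turn, and 5357 with a replicate block. DESeq2 called 5473. The count of rises was 1661 with limma on log2(FPKM + 1), against 2610. Against the model, leaving out 1 library gave 1239 to 3953 calls, 743 to 2087 rises and 496 to 1866 falls. Total counts gave 2655 falls, log2(FPKM + 1) gave 982 rises, and the replicate block gave 2734 calls, all set beside 3275 calls with 1640 rises and 1635 falls. Total counts put the median over all tested genes at -0.22 (log2) in that comparison. Replicate numbers did not pair the libraries: same-numbered deviations correlated at -0.0975, 0.00231 and -0.0702 for leucogen with normal, and at 0.126, -0.0891 and -0.0192 for leucogen with model. Calls were followed for 118 called genes: the largest changes, the 3 highest genes of each list and the genes the study names. Of these, 11 lost the call without 1 library and 22 in any alternative, and none of them changed direction. Other genes given by name were outside this count. A gene that an alternative's filter left out was not counted as lost. With a minimum of 10 counts per library, which leaves out genes near 0 in leucogen marrow, 3 pre-B and 5 mature B cell genes were called lower. The aldehyde dehydrogenase median of 0.72 turned sign with DESeq2 (-0.28) and without the filter (-0.29), when more genes entered. That of ribosomal proteins turned sign in 7 settings (-0.06 to -0.01), that of osteoclasts in 2 (0.30 and 0.015), and those of the endothelial, glutathione and megakaryocyte lists in 1 each. The cause of the other shifts was not tested.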

Other observations

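Genes without a protein product stood beside the coding genes in the same test. Of 12468 protein-coding genes tested against normal, 2066 rose and 2461 fell. Of 759 gene models in the annotation's TEC class, whose transcripts still await an experiment, 247 rose and 91 fell, with a median log2 fold change of 0.38. Of 127 sense intronic genes 39 rose and 14 fell, and of 289 long intergenic RNA genes 76 rose and 58 fell. Nos2, which encodes the nitric oxide synthase of activated phagocytes, was at 0 CPM in all 3 normal libraries and at 1.82, 4.93 and 1.80 CPM in the leucogen libraries, and it was chosen after its values were seen.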
